A study of Mus musculus with 4 samples.

Results

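The Cyp2c genes Cyp2c29, Cyp2c37, Cyp2c38, Cyp2c39 and Cyp2c40 encode cytochrome P450 enzymes of mouse liver, and their signals were compared between hepatic reductase null liver and control liver. The members were the probe sets (groups of short oligonucleotides read out as 1 signal) of an Affymetrix MG_U74Av2 array that the platform annotation assigns to these genes. That gave 5 genes of the 8949 that the annotation names, on 5 probe sets among the 12422 of the array that are not the manufacturer's controls. Of these, 3 carry 1 gene symbol, namely those of Cyp2c29, Cyp2c38 and Cyp2c39. The other 2 are shared: the annotation gives the Cyp2c37 probe set also to Cyp2c50, and the Cyp2c40 probe set also to Cyp2c67, Cyp2c68 and Cyp2c69. Values under the names Cyp2c37 and Cyp2c40 are therefore those of shared probe sets. The probe sets of Cyp2c38 and Cyp2c40 are of the _f_at kind, which can also bind related transcripts.

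The study held 4 arrays of liver RNA, 2 of mice titled Hepatic Reductase null (N7 and N8) and 2 of mice titled control (WT7 and WT8), here called null and control replicates 7 and 8. The labels describe pools of RNA from 3 animals of a genotype, but the control titles name a single mouse, so an array may stand for a pool or for 1 animal. No label says that the arrays came from independent animals or pools, so the p-values measure the spread between these arrays, which may be partly technical. Strain, sex, age and any allele that the control mice share with the null mice are details that the sources used here do not give. The reductase was taken as Por, the NADPH-dependent oxidoreductase of cytochrome P450, which the known mouse line of this name lacks in hepatocytes through an albumin-driven Cre, while the other liver cells keep it. No probe set of the annotation names Por, so the labels were not checked against it.

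Microsomal P450 enzymes receive the electrons for their catalytic cycle mainly from Por. Members of the Cyp2c family oxidise drugs and also act on the body's own lipids: as epoxygenases they turn arachidonic acid into epoxyeicosatrienoic acids, signalling lipids that epoxide hydrolases then convert to diols. Transcription of Cyp2c genes in hepatocytes depends on liver factors such as HNF4-alpha, and in mouse Cyp2c29 and Cyp2c37 are known to be inducible through the nuclear receptor CAR, which phenobarbital activates.

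In the RefSeq gene table of build GRCm38.p6 the genes lie on chromosome 19 in the order Cyp2c29, Cyp2c39, Cyp2c38, Cyp2c67, Cyp2c68, Cyp2c40, Cyp2c69, Cyp2c37, Cyp2c54 and Cyp2c50. The genes sharing the Cyp2c40 probe set thus neighbour one another, and Cyp2c50 lies close to Cyp2c37. The sequences before the starts of Cyp2c29 and Cyp2c40 are shown because their probe sets had the largest positive and the only negative change. The Cyp2c40 probe set is shared, so its change cannot be assigned to the Cyp2c40 promoter. Whether sequence and change are linked was not tested. All 5 genes had an entry in the RefSeq promoter table (build GRCm38.p6, from 250 bases before to 50 after an annotated start). The 250 bases before the start of Cyp2c29 (chr19:39286835-39287084, plus strand) and of Cyp2c40 (chr19:39812815-39813064, minus strand) are printed 5′ to 3′, with the motifs searched in capitals.
Cyp2c29: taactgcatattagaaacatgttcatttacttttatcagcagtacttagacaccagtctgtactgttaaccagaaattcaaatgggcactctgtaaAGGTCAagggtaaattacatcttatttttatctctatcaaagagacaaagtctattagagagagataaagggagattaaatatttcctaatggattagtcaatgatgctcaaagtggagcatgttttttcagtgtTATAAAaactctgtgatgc
Cyp2c40: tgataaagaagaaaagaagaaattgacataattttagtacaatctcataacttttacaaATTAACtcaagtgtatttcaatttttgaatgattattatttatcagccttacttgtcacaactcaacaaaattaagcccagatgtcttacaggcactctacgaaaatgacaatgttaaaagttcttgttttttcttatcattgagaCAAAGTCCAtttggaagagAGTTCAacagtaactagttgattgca

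The motifs searched on both strands were TATAAA, the nuclear receptor motifs AGGTCA and AGTTCA, the HNF1 motif GTTAAT, the HNF4 core CAAAGTCCA and the C/EBP site TTGCGCAA, and no matches in these promoters overlapped. In Cyp2c29, AGGTCA begins at position -154 and TATAAA at position -19, counted back from the base before the start. In Cyp2c40, CAAAGTCCA begins at position -45, AGTTCA at -26 and GTTAAT, on the other strand, at -191, and TATAAA lies at position 41 after the annotated start. AGGTCA was present in 16.3% of the 32851 promoters of the table, AGTTCA in 14.0%, GTTAAT in 7.1%, TATAAA in 13.6%, CAAAGTCCA in 0.475% and TTGCGCAA in 0.183%. Cyp2c37 held none of the motifs in this window and Cyp2c38 only TATAAA. Cyp2c39 has 2 annotated starts, of which one holds AGGTCA and the other AGTTCA and TATAAA. They lie on either side of the Cyp2c38 start, so the order given above holds for the first of them. These are matches of letters and say nothing of binding.

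Stretches of 70 bases around the CAAAGT that best matches Cyp2c29 show how alike the members are. Capitals mark this CAAAGT, the first part of the HNF4 core, and any motif of the search. CAAAGT itself was chosen after the sequences were seen and was present in 14.4% of all promoters. The stretches lie at chr19:39286921-39286990 (plus strand), chr19:39463172-39463241 (minus strand), chr19:39510681-39510750 (plus strand), chr19:39992253-39992322 (plus strand) and chr19:39812845-39812914 (minus strand), in the order printed.
Cyp2c29: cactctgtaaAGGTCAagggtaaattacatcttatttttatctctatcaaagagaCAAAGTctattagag
Cyp2c38: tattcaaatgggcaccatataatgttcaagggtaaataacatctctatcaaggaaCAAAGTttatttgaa
Cyp2c39: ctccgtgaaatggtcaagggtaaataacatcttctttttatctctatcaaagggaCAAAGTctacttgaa
Cyp2c37: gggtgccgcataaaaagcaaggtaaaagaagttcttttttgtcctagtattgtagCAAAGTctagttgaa
Cyp2c40: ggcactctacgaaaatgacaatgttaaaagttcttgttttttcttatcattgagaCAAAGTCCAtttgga

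In a global alignment the promoter of Cyp2c29 was 81.3% identical to that of Cyp2c38 and 81.9% and 80.5% identical to those at the 2 starts of Cyp2c39, over the aligned bases. Cyp2c38 and Cyp2c39 were 86.3% and 88.2% identical at those starts. Against Cyp2c29, Cyp2c37 was at 61.6% and Cyp2c40 at 65.1%, and Cyp2c37 against Cyp2c40 at 65.8%. Cyp2c29, Cyp2c38 and Cyp2c39, which neighbour one another in the cluster, therefore form the closer group by promoter sequence.

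Null liver had higher signals than control liver for Cyp2c29, Cyp2c38 and the shared Cyp2c37 probe set, and lower signals for the shared Cyp2c40 probe set, on arrays that did not overlap, while the Cyp2c39 signals overlapped. Cyp2c29 had the largest difference, 3.13-fold, and the others lay between 1.38-fold higher and 1.34-fold lower. None of the 5 passed the threshold of an adjusted p under 0.05 (limma, two-sided, Benjamini-Hochberg over the 7241 probe sets tested), so 0 of 5 members were called in either direction. Over all probe sets tested, 0.387% were called, 0.304% higher in null liver and 0.0829% lower. With p unadjusted and under 0.05, limma passed 4 of the 5, 3 higher and 1 lower, where it passed 12.6% of all probe sets, 6.16% higher and 6.46% lower. Arrays of the genotypes did not overlap for 4 of the 5, 3 higher and 1 lower, where the share of all probe sets was 43.8%, made up of 20.4% higher and 23.4% lower. The genes are related and 2 of the probe sets are shared, so the 5 were not counted as independent, and how far each also binds related transcripts was not tested.

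Cyp2c29, which in mouse liver makes epoxides of arachidonic acid and oxidises drugs, had signals of 202.8 and 239.0 on null replicates 7 and 8, against 52.5 and 94.5 on control replicates 7 and 8. Both null signals lay above both control signals, and the control arrays lay further apart than the null arrays. The mean was 220.9 ± 25.6 in null liver and 73.5 ± 29.7 in control liver (SD, n = 2 each). The log2 change, null minus control, was 1.64 ± 0.28 (SE), with a 95% interval from 0.97 to 2.32, that is from 1.96-fold to 4.98-fold. It missed the threshold (limma adjusted p = 0.0803), though 0.608% of the probe sets tested had a larger positive change. Without control replicate 8 the change was 2.07 and passed (limma adjusted p = 0.0371), and without control replicate 7 it was 1.22 (adjusted p = 0.206).

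**Figure D1:**
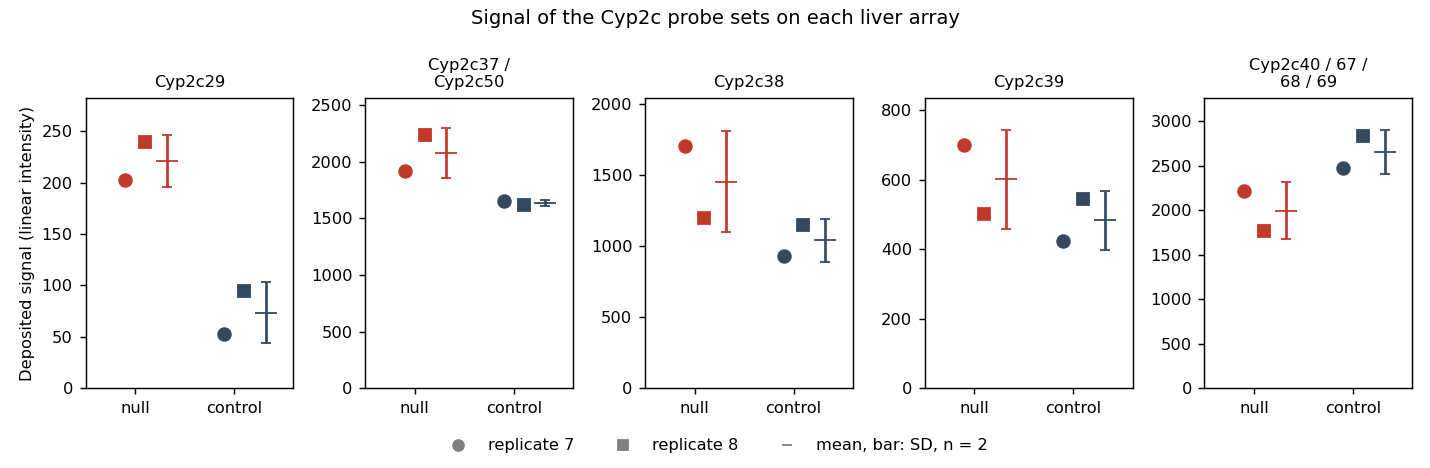
Deposited signal (linear intensity, from 0) of each of the 5 Cyp2c probe sets on the null and control arrays, with circles for replicate 7, squares for replicate 8 and a bar for the mean and SD of 2 arrays. The Cyp2c29 null signals (202.8 and 239.0) lie above the control signals (52.5 and 94.5), the Cyp2c40 null signals lie below the control signals, and Cyp2c39 overlaps; heights are not comparable between panels.

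Cyp2c38, another arachidonic acid epoxygenase, had signals of 1707.9 and 1201.6 on null replicates 7 and 8, against 932.9 and 1149.6 on control replicates 7 and 8. The lower null array lay just above the higher control array. The log2 change was 0.47 ± 0.18 (SE), with a 95% interval from 0.04 to 0.90 (limma adjusted p = 0.355). Without null replicate 7 it was 0.21, without null replicate 8 it was 0.72, and without control replicate 7 it was 0.32.

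Cyp2c39, known in mouse as a retinoic acid hydroxylase, had signals of 700.2 and 500.3 on null replicates 7 and 8, against 423.2 and 542.9 on control replicates 7 and 8. Null replicate 8 lay between the control arrays. The log2 change was 0.30 ± 0.19 (SE), with a 95% interval from -0.16 to 0.76 (limma adjusted p = 0.572), which includes 0 and, at its upper end, a 1.70-fold difference. Without null replicate 7 it was 0.06, without control replicate 7 it was 0.12, without control replicate 8 it was 0.48, and without null replicate 8 it was 0.55.

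Null replicate 7 had the highest signal of the 4 arrays for both Cyp2c38 and Cyp2c39, and control replicate 7 the lowest. The ratio of null replicate 7 to null replicate 8 was 1.42 for Cyp2c38 and 1.40 for Cyp2c39. The log2 difference of Cyp2c38 minus Cyp2c39 within an array was 1.29 and 1.26 on null replicates 7 and 8, against 1.14 and 1.08 on control replicates 7 and 8, so their ratio varied little from array to array. Whether the Cyp2c38 probe set also reads Cyp2c39 transcripts was not tested. The same array, null replicate 7, carried raised pancreatic acinar signals. All 6 of the 12 listed acinar markers that have a probe set were highest there, and their summed signal was 2952 on null replicate 7 and 294.6 on null replicate 8, against 252.8 and 365.1 on control replicates 7 and 8. None of the 6 lay below the floor on all 4 arrays, and their part in the Cyp2c38 and Cyp2c39 values was not tested.

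The shared Cyp2c37 and Cyp2c50 probe set, of P450s that in mouse also oxidise arachidonic acid, had signals of 1923.7 and 2233.7 on null replicates 7 and 8, against 1655.6 and 1615.6 on control replicates 7 and 8. The control arrays lay close together and below both null arrays. The mean was 2079 ± 219 in null liver and 1636 ± 28.3 in control liver (SD, n = 2 each). The log2 change was 0.34 ± 0.10 (SE), with a 95% interval from 0.11 to 0.57 (limma adjusted p = 0.229). It was 0.23 without null replicate 8 and 0.45 without null replicate 7.

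The shared probe set of Cyp2c40, Cyp2c67, Cyp2c68 and Cyp2c69 had signals of 2219.8 and 1768.7 on null replicates 7 and 8, against 2478.3 and 2830.8 on control replicates 7 and 8. Both null arrays lay below both control arrays. The mean was 1994 ± 319 in null liver and 2655 ± 249 in control liver (SD, n = 2 each). The log2 change was -0.42 ± 0.13 (SE), with a 95% interval from -0.72 to -0.12 (limma adjusted p = 0.252). It was -0.25 without null replicate 8 and -0.58 without null replicate 7. Which of the 4 annotated genes carries the difference cannot be told apart with this probe set.

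**Figure D2:**
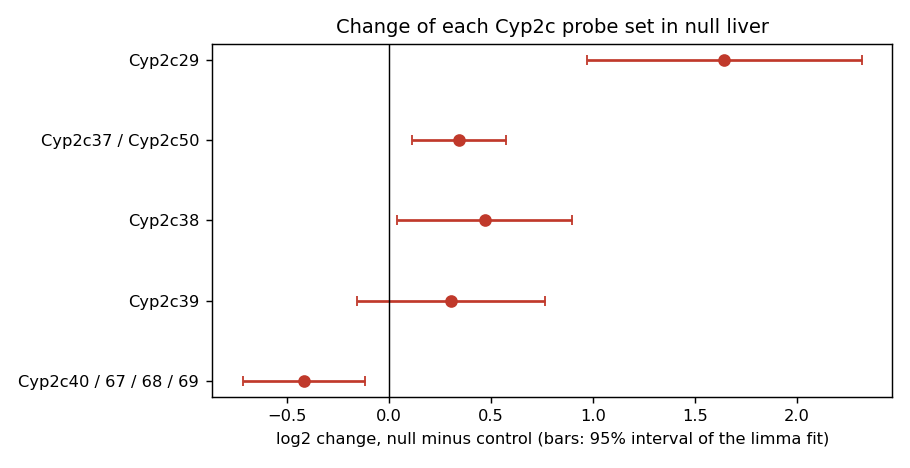
Log2 change, null minus control, of each Cyp2c probe set from the limma fit over 4 arrays, with bars for the 95% interval. The interval of Cyp2c29 (0.97 to 2.32) lies above those of the other 4, which differ in sign: the Cyp2c40 interval lies below 0, and that of Cyp2c39 includes it.

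The median log2 change of the 5 members was 0.34, beside -0.01 over all probe sets tested, with 4 positive and 1 negative, where 48.9% of all probe sets were positive. The members' median was 0.21 without null replicate 7 and 0.55 without null replicate 8. Unequal change was looked at within arrays, where the difference between 2 probe sets does not depend on the scaling of an array. For Cyp2c29 minus Cyp2c40 the log2 difference was -3.45 and -2.89 on null replicates 7 and 8, against -5.56 and -4.90 on control replicates 7 and 8. This difference shifted by 2.06 between the genotypes, the most of the 10 pairs. The arrays did not overlap in 8 of the 10 pairs, among them every pair that holds Cyp2c29 and every pair that holds Cyp2c40. The pairs reuse the same 5 probe sets and are not independent. The share over pairs of all probe sets was not computed, and for single probe sets it was 43.8%. The exceptions were Cyp2c38 minus Cyp2c37, with a shift of 0.13, and Cyp2c37 minus Cyp2c39, with a shift of 0.04. With 2 arrays on each side, the smallest two-sided p that an exact permutation test allows is 0.33, so none of these differences could pass, and adjusted over the 10 pairs it was 0.417.

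**Figure D3:**
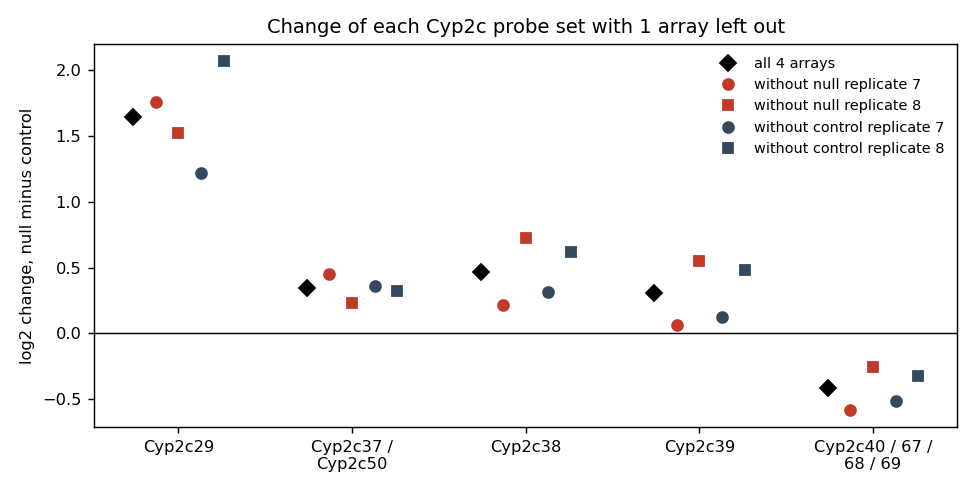
Log2 change, null minus control, of each Cyp2c probe set with all 4 arrays (diamonds) and with 1 array left out (circles for replicate 7, squares for replicate 8, coloured by the genotype of the array left out). Cyp2c29 runs from 1.22 to 2.07, Cyp2c39 from 0.06 to 0.55, and the Cyp2c40 probe set is negative throughout, from -0.58 to -0.25.

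The labelled tissue was checked with 16 listed hepatocyte markers, of which 12 had a probe set and 0 lay below the floor (7.1, the lowest signal counted) on all 4 arrays. Their summed signal was 55379 and 53012 on null replicates 7 and 8, against 57330 and 56257 on control replicates 7 and 8. Of the 13 macrophage and Kupffer cell markers measured, 1 rose (Mpeg1, which did not pass with any 1 array left out), and their summed signal was 2952 and 3264 on the null arrays, against 2361 and 2300 on the control arrays. Their log2 changes were positive for 12 and negative for 1, with 5 higher and 0 lower at an unadjusted p under 0.05 in limma. Stellate cell and fibroblast markers summed to 1558 and 1863 on the null arrays, against 1199 and 1267 on the control arrays, over 10 of 11 genes. Of these 9 were tested, 8 positive and 1 negative, with 5 higher and 0 lower at the same unadjusted p. Over all probe sets tested the shares at that p were 6.16% higher and 6.46% lower. In bulk liver RNA, fewer cells of a type and less RNA per cell cannot be told apart, and the part of these shifts in the Cyp2c values was not tested.

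Other P450s of families 1 to 3 went both ways. Of the 42 genes listed, 21 had a probe set of their own and 14 were tested, of which 2 rose (Cyp2b10 and Cyp3a11), 1 fell (Cyp2d26) and 11 did not pass, with a median log2 change of -0.02. This median was 0.18 without control replicate 8 and 0.05 without null replicate 8, so its sign depended on single arrays. Cyp2d26 did not pass with any 1 array left out, with a log2 change between -0.66 and -0.56. Cyp2c70, known for making muricholic acids in mouse, was the only Cyp2c gene among the 42 listed that was tested on a probe set of its own. It had signals of 810.9 and 852.5 on null replicates 7 and 8, against 1571.7 and 1104.7 on control replicates 7 and 8. Its null arrays lay below its control arrays, at a log2 change of -0.66 ± 0.16 (SE, limma adjusted p = 0.168).

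Among the drug-inducible P450s, Cyp2b10, the classical CAR target, had signals of 265.8 and 638.3 on null replicates 7 and 8, against 3.1 and 19.3 on control replicates 7 and 8, of which the first lies below the floor (limma adjusted p = 0.0253). Cyp3a11, the main PXR-inducible P450, had 4795.9 and 5293.3 on the null arrays, against 2789.5 and 2973.9 on the control arrays (log2 change 0.81 ± 0.08, SE, limma adjusted p = 0.021). With 1 array left out, Cyp2b10 did not pass without null replicate 7 or null replicate 8 (log2 change 5.77 and 4.51), and Cyp3a11 passed only without null replicate 7 (0.88), staying between 0.74 and 0.85 without the others. Over the 31 listed CAR and PXR targets outside the Cyp2c family, 21 were tested, of which 3 rose (Gstm3 beside these), 0 fell and 18 did not pass by limma, with a median of 0.42. At an unadjusted p under 0.05 in limma 14 of the 21 were higher and 1 was lower, against 6.16% and 6.46% of all probe sets. Log2 changes of the 21 ran from -0.52 (Gsta4) to 5.14 (Cyp2b10), and that of Cyp2c29 was 1.64. Gstm2, a glutathione transferase, was at 1.74 ± 0.30 (log2, SE) on its brightest probe set, with another probe set at 0.37. Cyp3a16, with signals of only 14.1 to 75.2, was at 1.74 ± 0.38 (log2, SE). Outside this list, the periportal gene Apoa4 was at 1.73 ± 0.25. None of these last 3 passed.

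Enzymes that act on arachidonic acid or on its epoxides were followed as the neighbours of the epoxygenases in the pathway. Of 38 listed genes 16 were tested and 0 passed in limma. At an unadjusted p under 0.05 in limma 3 were higher and 3 lower, against 6.16% and 6.46% of all probe sets. The median was 0.01, which ran from -0.04 without control replicate 8 to 0.06 without control replicate 7. The epoxide hydrolases differed in sign. Ephx1, the microsomal enzyme and itself a CAR target, had signals of 1897.6 and 2130.2 on null replicates 7 and 8, against 1573.6 and 1523.0 on control replicates 7 and 8 (log2 change 0.38 ± 0.09, SE, limma adjusted p = 0.163). Ephx2, the soluble enzyme that hydrolyses the arachidonic acid epoxides, had 674.8 and 734.5 on the null arrays, against 893.9 and 843.0 on the control arrays (log2 change -0.30 ± 0.10, SE, limma adjusted p = 0.296). For each the arrays of the genotypes did not overlap, as was so for 43.8% of all probe sets tested.

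Acsl4, which attaches arachidonic acid to coenzyme A, was at 0.79 ± 0.16, with another probe set at 0.61, and Tbxas1, the thromboxane synthase, at 0.76 ± 0.29 (log2, SE). Cyp4f13 was at -0.36 ± 0.14 on its brightest probe set and at 0.39 on another. Cyp2j5, an epoxygenase outside the Cyp2c family, was at -0.30 ± 0.24. None of these passed.

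**Figure D4:**
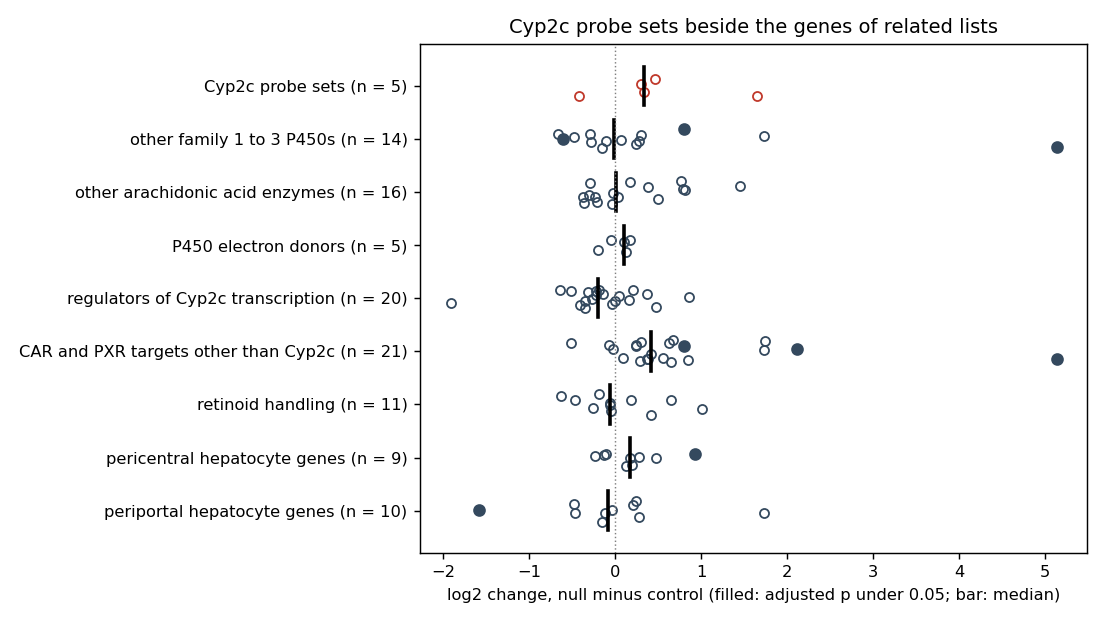
Log2 change, null minus control, of the 5 Cyp2c probe sets (red) and of the tested genes of each related list (grey), with filled points for an adjusted p under 0.05 and a black bar for the median. The Cyp2c median is 0.34, with members from -0.42 to 1.64, and that of the CAR and PXR targets is 0.42. The other lists shown have medians between -0.20 and 0.17. Cell type markers are not shown, and their medians include 0.30 (macrophage and Kupffer cell), 0.39 (stellate cell and fibroblast) and -0.05 (hepatocyte).

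Of the 7 listed P450 electron donors, which include Por, 5 were tested and 0 passed in limma, with 0 at an unadjusted p under 0.05. Cyb5a, the cytochrome b5 that can pass an electron to P450s, was at 0.11 ± 0.07, and Cyb5r3, its reductase, at -0.05 ± 0.08 (log2, SE). The largest change in size among them was that of Cyb5b, the outer mitochondrial form, at -0.20 ± 0.10, with another probe set at 0.55.

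Of 24 listed regulators of Cyp2c transcription 20 were tested and 0 passed in limma. At an unadjusted p under 0.05 in limma 0 were higher and 3 lower, against 6.16% and 6.46% of all probe sets. The median was -0.20, which was -0.11 without control replicate 7. The 3 lower were Cebpa, a liver-enriched activator, Rxrb, a partner of nuclear receptors, and Nr0b2, a corepressor. Nr0b2 had signals of 64.4 and 10 on null replicates 7 and 8, against 100 and 91.2 on control replicates 7 and 8. Its log2 change was -1.91 ± 0.76 (SE, limma adjusted p = 0.365), with null arrays that lay far apart. Cebpa had signals of 2538.3 and 2473.7 on null replicates 7 and 8, against 3178.9 and 3065.3 on control replicates 7 and 8 (log2 change -0.32 ± 0.07, SE, limma adjusted p = 0.141). Nr1i3, which encodes CAR, was at -0.22 ± 0.11 on its brightest probe set, with 0.08 and -0.18 on the others. Nr1i2, which encodes PXR, was at -0.23 ± 0.26, and Hnf4a at 0.16 ± 0.40 with null signals of 77.0 and 194.6 that differed widely.

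Retinoid genes were read beside Cyp2c39. Of 24 listed, 11 were tested and 0 passed in limma. At an unadjusted p under 0.05 in limma 3 were higher and 2 lower, against 6.16% and 6.46% of all probe sets. The median was -0.06. It was -0.10 without control replicate 7, -0.02 without control replicate 8 and -0.04 without null replicate 7. Cyp26a1, the main retinoic acid hydroxylase, had signals of 64.4 and 51.7 on null replicates 7 and 8, against 28.5 and 28.6 on control replicates 7 and 8 (log2 change 1.02 ± 0.26, SE, limma adjusted p = 0.175). Aldh1a1, which makes retinoic acid, was at 0.42 ± 0.08, and Aldh1a7, an aldehyde dehydrogenase close to it in sequence, at 0.65 ± 0.16. Ttr, the plasma carrier that binds retinol-binding protein, was at -0.63 ± 0.14.

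P450s are unevenly spread over the liver lobule, mostly towards the central vein. Of 9 tested pericentral genes 1 rose (Oat), 0 fell and 8 did not pass, with a median of 0.17. Their changes were positive for 6 and negative for 3. Of 10 tested periportal genes 0 rose, 1 fell (Hal) and 9 did not pass, with a median of -0.08. This median was -0.17 without null replicate 7 and -0.01 without control replicate 8. Changes were positive for 4 of the 10 and negative for 6. The largest in size was positive, that of Apoa4 at 1.73 ± 0.25 (log2, SE, limma adjusted p = 0.0538). Oat did not pass with any 1 array left out (log2 change 0.80 to 1.07), and Hal did not pass without control replicate 7 or control replicate 8 (-1.60 and -1.55).

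The genes whose profiles over the 4 arrays lay nearest to each member were found by the root mean square distance between log2 signals, each centred on its own mean, among 5507 genes. Nearest to Cyp2c29 were Npdc1 (distance 0.11), Cyp8b1 (0.13) and Nfkbie (0.13). Cyp8b1, the sterol hydroxylase of cholic acid synthesis, had signals of 3352.2 and 3508.9 on null replicates 7 and 8, against 967 and 1425.9 on control replicates 7 and 8. Nearest to the Cyp2c37 probe set were Utp18, Cldn3 and Msn, with distances of 0.02 each. Nearest to Cyp2c38 were Pold4 (0.03), Zfp322a (0.04) and Eif4e2 (0.04), nearest to Cyp2c39 were Adcy6 (0.01), Cfp (0.02) and Stx8 (0.02), and nearest to the Cyp2c40 probe set were Klf9 (0.02), Dnttip2 (0.02) and Aadac (0.03). Over 4 arrays such nearness describes these arrays alone.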

How the data were processed

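The deposited intensity of a probe set is the authors' GCOS value, which per the labels draws on perfect-match and mismatch oligonucleotides and was scaled by the total fluorescence of the chip. Neither the GCOS version nor the scaling target is stated in what was used here. The deposited values are linear and were not normalised again. The 66 manufacturer's control probe sets were left out. A floor of 7.1 (25th percentile) was set before taking log2. Testing covered the 7241 probe sets, all 5 members among them, whose mean exceeded log2 of 16.8 (40th percentile). Changes of dim genes are understated by the floor.

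Symbols came from the platform annotation and, by gene identifier, from the GRCm38.p6 table: 10833 probe sets carried 1 symbol, 396 several and 1193 are unnamed here. In the lists a gene was represented by its brightest tested probe set. The test of genotype was two-sided and used limma 3.58.1 (R 4.3.3; lmFit, then eBayes with trend), with Benjamini-Hochberg adjustment over all probe sets tested and 0.05 as the threshold. The pooled variance counted for 4.78 degrees of freedom, beside 2 from the arrays. The number of arrays limits the precision. Promoters were aligned with Biopython 1.88. Of the steps, only the limma fit was tested on simulated arrays with known changes.

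The members and lists were chosen with earlier results of these data known. Named genes were the members, tested genes of the lists of P450s, electron donors, epoxide hydrolases and regulators, up to 6 genes of smallest p of each other list, and the 3 nearest profiles per member. Mpeg1, the 1 marker that passed, was named after its value was seen. A planned comparison of protein sequences was not run. Alternatives covered the floor, the filter, scaling, the variance model, a replicate block and each array left out.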

Additional observations from a re-analysis of the deposited data

How the results depend on the processing

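The sign of the change of every Cyp2c probe set was the same under all 14 alternatives. Cyp2c29 ran from 1.22 to 2.07 with 1 array left out and from 1.44 to 1.65 under the other settings, and the adjusted p ranged from 0.026 to 0.558. The count of members called higher was 0 to 1 with 1 array left out, and 1 without control replicate 8 (Cyp2c29, 2.07). With the replicate number as a replicate block it was also 1 (Cyp2c29, 1.64, limma adjusted p = 0.026). No label says that equal numbers share a litter or batch. The deviations of equally numbered arrays correlated at -0.03 over probe sets, and this single value cannot show whether they share one. The count of all probe sets called higher was 37 with the replicate block, 0 with the floor at the 50th percentile (which also lets every probe set through the filter), 0 without the filter and 0 without an intensity trend, against 22, and 10 to 13 with 1 array left out. The count called lower was 15 with the replicate block, 15 with the filter at the 60th percentile, 12 after quantile normalisation, 13 with robust eBayes, 1 with the floor at the 50th percentile, and 0 without the filter or without the trend, against 6, and 0 to 4 with 1 array left out. Genes of the related lists called higher were 7 with the filter at the 60th percentile, after quantile normalisation and with robust eBayes, and 0 with the floor at the 50th percentile, without the filter and without the trend, against 4, and 1 to 3 with 1 array left out. Those called lower were 4 under the first 3 of these settings and 0 under the last 3, against 2, and 0 to 2 with 1 array left out. The lowest of these list counts came without null replicate 8 (higher) and without either control replicate (lower), and without control replicate 8 there were 2 higher. The causes were not tested. The median of the members ran from 0.21 to 0.55 with 1 array left out. Of the list genes named as having passed, Gstm3 passed with each array left out in turn.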
